A study of Schizosaccharomyces pombe with 261 samples.

Results

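The 10 genes described here are the factors of MBF, the transcription factor of the G1/S wave in fission yeast (Schizosaccharomyces pombe), its corepressors and 5 of its target genes. They were matched by systematic identifier, and all 10 were found among the 7015 gene identifiers of each count table and passed the filter on low counts. The data are polyadenylated mRNA sequenced in 39 libraries, in 13 groups of 3, out of 261 samples in the series, and the other 222 samples were not analysed here. Cells were grown in YES medium at 30 °C to mid-log phase and moved to 37.5 °C for 0, 2.5, 5 or 25 min. The wild type (WT) of series RNA1 was sampled at 0, 5 and 25 min and the WT of series RNA2 at 0, 2.5 and 5 min. The third series, RNA3, has 3 deletion labels: clr4Δ, sampled at 0, 2.5 and 5 min, and atf1Δ and pcr1Δ, each sampled before heat and after 5 min. All strains, WT included, were h+ and carried ade6-DN/N, leu1-32 and ura4-DS/E, with ura4+ placed at imr1L and ade6+ at otr1R, in the repeats of a centromere. The atf1 and pcr1 alleles carry KanMX6 and the clr4 allele NatMX6 in place of the gene, and since RNA3 had no WT of its own, strain and series cannot be told apart in any comparison with WT.

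MBF binds promoters of genes needed for DNA replication and turns them on as cells pass from G1 into S phase. Cdc10 is the shared subunit that does not bind DNA by itself, and Res1 and Res2 are the related subunits that hold the DNA. The target genes here are cdc22, which encodes the large subunit of ribonucleotide reductase, cdc18 and cdt1, whose products load the replicative helicase at origins, mik1, a kinase that inhibits the mitotic CDK, and cig2, the S phase cyclin. Nrm1 and the homeodomain protein Yox1 bind MBF and repress it after S phase, and their own genes are MBF targets too.

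The promoters are shown because the genes split by sequence as they do by role. In the 300 bases from 250 before to 50 after the annotated gene start, read from the RefSeq genome ASM294v3, ACGCG, the core of the MCB box that MBF binds, was found on either strand in all 7 targets and corepressors and in none of the 3 factor genes. Of 5112 promoters of protein-coding genes, 11.44% held it. The full box ACGCGT, which contains the core on both strands, was found in cdc22 (at 2 places), cdt1 and yox1, and in 3.25% of all promoters. A pair of cores in tandem, ACGCGACGCG, a motif written down after the sequences were seen, were found in 6 of the 7, all but yox1, and in 16 promoters in all (0.31%). TGACGT, the core of the site for Atf1 and Pcr1, was found in none of the 10 and in 5.91% of all promoters, and GAANNTTC, the core of a heat shock element, in cdc10 alone and in 11.11% of all. A match is a description of the letters in this window and no sign of binding. The windows of 4 targets that moved in different ways and of the factor gene res2 follow, 5′ to 3′ on the strand of the gene, with matches to ACGCG in capitals.
cdc22 (I:4226720-4227019, plus strand): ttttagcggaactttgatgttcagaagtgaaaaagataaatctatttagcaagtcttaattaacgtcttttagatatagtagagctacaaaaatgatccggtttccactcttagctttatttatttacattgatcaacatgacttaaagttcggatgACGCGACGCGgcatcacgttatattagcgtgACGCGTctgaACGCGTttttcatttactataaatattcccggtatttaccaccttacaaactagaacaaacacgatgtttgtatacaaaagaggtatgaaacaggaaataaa
cdc18 (II:2217935-2218234, minus strand): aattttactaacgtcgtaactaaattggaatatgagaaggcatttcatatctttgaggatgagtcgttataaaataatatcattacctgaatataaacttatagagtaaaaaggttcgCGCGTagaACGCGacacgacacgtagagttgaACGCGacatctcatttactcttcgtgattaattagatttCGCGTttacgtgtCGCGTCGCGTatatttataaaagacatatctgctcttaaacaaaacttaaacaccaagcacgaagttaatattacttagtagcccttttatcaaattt
mik1 (II:221048-221347, plus strand): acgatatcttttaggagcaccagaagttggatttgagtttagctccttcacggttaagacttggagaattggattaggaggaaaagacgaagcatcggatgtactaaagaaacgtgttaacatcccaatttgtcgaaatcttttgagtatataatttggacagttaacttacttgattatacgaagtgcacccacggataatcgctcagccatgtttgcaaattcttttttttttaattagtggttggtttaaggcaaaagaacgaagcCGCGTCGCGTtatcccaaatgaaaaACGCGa
cig2 (I:2709532-2709831, plus strand): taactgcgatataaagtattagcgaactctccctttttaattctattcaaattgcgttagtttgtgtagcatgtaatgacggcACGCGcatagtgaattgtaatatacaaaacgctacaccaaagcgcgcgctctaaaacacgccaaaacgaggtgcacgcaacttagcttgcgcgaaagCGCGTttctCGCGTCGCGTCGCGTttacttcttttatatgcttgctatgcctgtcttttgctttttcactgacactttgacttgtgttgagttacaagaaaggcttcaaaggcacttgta
res2 (I:686285-686584, plus strand): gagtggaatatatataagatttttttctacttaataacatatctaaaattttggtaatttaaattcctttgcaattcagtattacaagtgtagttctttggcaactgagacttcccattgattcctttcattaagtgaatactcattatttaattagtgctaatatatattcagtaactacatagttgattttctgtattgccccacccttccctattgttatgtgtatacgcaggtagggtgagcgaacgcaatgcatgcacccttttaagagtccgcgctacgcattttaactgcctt
In cdc22, cdc18, cdt1, cig2, nrm1 and yox1 the matches began 43 to 167 bases before the gene start. In mik1 they began 19, 24 and 44 bases after it. These distances hold for the ASM294v3 starts alone. The count table's build starts mik1 at base 221358, past the end of the window at 221347, so there the mik1 matches lie before the start. It starts cdt1 at 477189, against 477392 in ASM294v3, so there the cdt1 matches lie after the start. The starts of the other genes differ between the builds too. In ASM294v3 mik1 starts at base 221298 of chromosome II, which is also the first base of ssb1, the gene of a replication protein A subunit on the other strand, so the windows of both genes overlap.

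**Figure D1:**
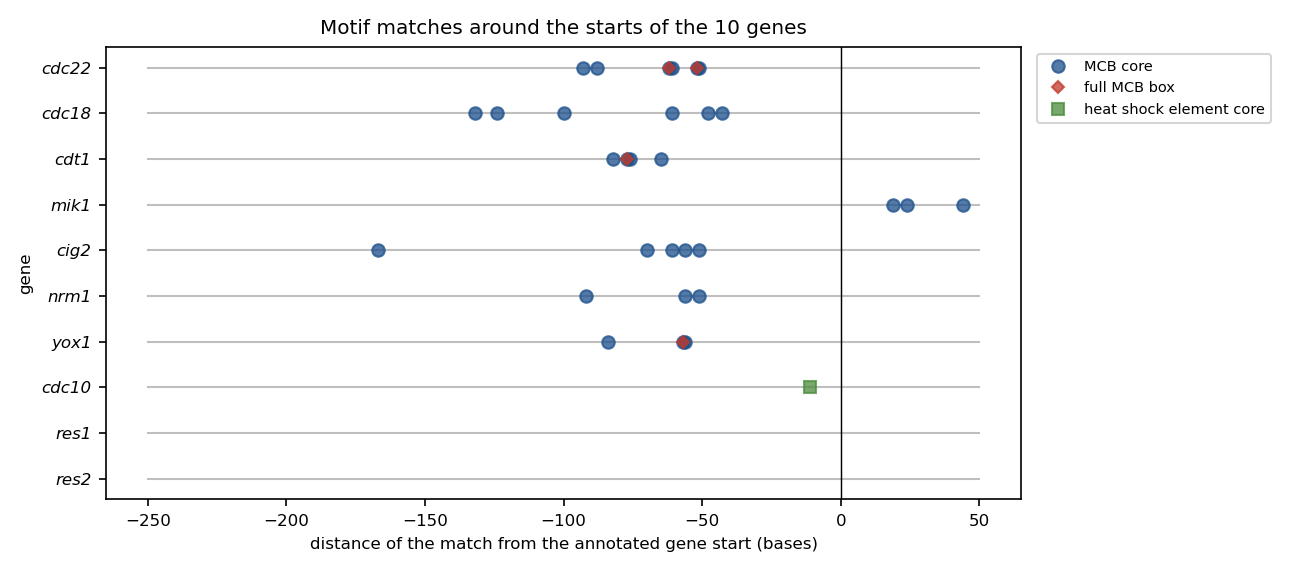
Distance of each motif match from the annotated gene start, in bases, for the 10 genes (rows), with 0 as the first base of the gene in ASM294v3. Circles are the MCB core, diamonds the full MCB box and the square the heat shock element core. The 7 targets and corepressors hold 3 to 6 cores each, and the 3 factor genes hold none.

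Libraries held 6573143 to 12588425 counts in genes. Positions in the count table's build, ASM294v2, put cdc22 (SPAC1F7.05) at 4226958 to 4229989, cig2 (SPAPB2B4.03) at 2709731 to 2714162 and res2 (SPAC22F3.09c) at 686543 to 689179 on chromosome I. On chromosome II lie cdc18 (SPBC14C8.07c) at 2215955 to 2218031, cdt1 (SPBC428.18) at 477189 to 478738, mik1 (SPBC660.14) at 221358 to 224117, nrm1 (SPBC16A3.07c) at 4285899 to 4288583, yox1 (SPBC21B10.13c) at 1648153 to 1650147, cdc10 (SPBC336.12c) at 2760741 to 2763830 and res1 (SPBC725.16) at 1232588 to 1235587. Which strand the counts were taken from is not given in the sources used here, so 6 genes that overlap a gene on the other strand are uncertain: cdc18, cig2, nrm1, yox1, cdc10 and res1. Reads of the deleted genes were present in the libraries labelled for their deletion. In libraries labelled atf1Δ at 0 min atf1 was at 128 ± 12.4 CPM (gene counts per 1e+06 of the TMM-scaled library total, mean ± SD, n = 3), against 131 ± 14.2 and 213 ± 8.65 in the WT series. In libraries labelled pcr1Δ, pcr1 was at 42.3 ± 4.84 CPM, against 64.1 ± 8.98 and 71.7 ± 15.2. In libraries labelled clr4Δ, clr4 was higher than in WT, at 175 ± 4.16 CPM against 51.1 ± 1.90 and 43.7 ± 0.849, so the label is used only as the name of the group. At 5 min atf1 was at 168 ± 6.66 CPM in libraries labelled atf1Δ against 718 ± 31.1 and 572 ± 55.4 in WT, and pcr1 at 53.3 ± 2.73 in those labelled pcr1Δ against 363 ± 35.2 and 289.95 ± 35.8. Transcripts of the h+ mating type (map2 and map3) summed to 11.3 to 194 CPM over the 39 libraries. Those of the other type (mfm1, mfm2, mfm3 and mam2) summed to 4.49 to 14.7, and only mfm1 was at 0 in any library (3 of them). The ranges of the sums overlap. Singly, map3 ran from 7.72 to 187 CPM, and map2 (3.02 to 8.18) overlapped mam2 (2.09 to 6.53).

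Before heat, cdc22 was the most abundant of the 10 mRNAs per length. In WT of series RNA1 its level was 219 ± 9.63 CPM per kb of exon (n = 3). It was followed by nrm1 at 42.5 ± 7.98 and res1 at 38.4 ± 4.22, whose libraries overlapped. Then came cdc18 at 27.8 ± 3.22 and cig2 at 25.7 ± 1.32, also overlapping, and cdc10 at 20.3 ± 2.79, mik1 at 18.3 ± 0.969 and cdt1 at 17.4 ± 0.836, of which no neighbours were apart. The lowest were yox1 at 11.7 ± 1.65 and res2 at 10.9 ± 1.54, which overlapped. In WT of series RNA2 cdc22 was again the highest, at 352 ± 54.8 CPM per kb, with nrm1 next at 43.3 ± 6.84, and yox1 (14.3 ± 1.37) and res2 (9.86 ± 0.870) were again the lowest.

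The same WT genotype at 0 min was not at the same level in the 2 series. Of the 10 genes, 4 were lower in series RNA1, all of them targets, and none was higher, where 13.9% of 6172 genes tested were lower and 9.75% higher (23.6% called). The log2 difference was -0.69 ± 0.13 (SE) for cdc22 (adjusted p = 0.000168, edgeR quasi-likelihood test), -0.68 ± 0.12 for cig2 (0.000115), -0.48 ± 0.10 for cdt1 (0.00102) and -0.37 ± 0.13 for mik1 (0.0291). The mik1 call was lost without any 1 of 5 of the 6 libraries, all but replicate 2 of series RNA2, with adjusted p from 0.0507 to 0.141, and with library totals alone (0.0817).

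After 25 min of heat in WT of series RNA1, the target genes were lower and the genes of 2 of the 3 factors higher. In WT of series RNA1 after 25 min, 9 of 10 genes were called, 7 lower and 2 higher, where 67.3% of 6172 genes were called (33.5% lower and 33.9% higher). For the same 9 genes the libraries of 0 and 25 min did not overlap, as for 72% of all genes. After 5 min 5 of 10 were called, 3 lower and 2 higher, against 48.4% of all genes (23.5% lower and 24.9% higher), and 7 did not overlap, against 55.7%. The median log2 change of the 10 was -0.09 after 5 min and -0.60 after 25 min, and that of all genes was -0.001 and 0.02. Between 5 and 25 min, 4 fell and none rose, where 58.1% of genes were called (29.6% lower and 28.4% higher). Scaling by library totals alone moved the median change of all genes to -0.21 at 5 min and, between 5 and 25 min, to 0.27. The share of calls that were higher then went from 51.4% to 29.1% and from 49.0% to 72.1%. The 25 min time point was in series RNA1 alone. The levels and changes of single genes that follow, as far as res1, are from WT of series RNA1. In a culture that divides out of step, as a growing culture does, a lower level of these mRNAs could mean fewer cells in the phase that makes them or less RNA in each cell, and the data cannot tell these apart.

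**Figure D2:**
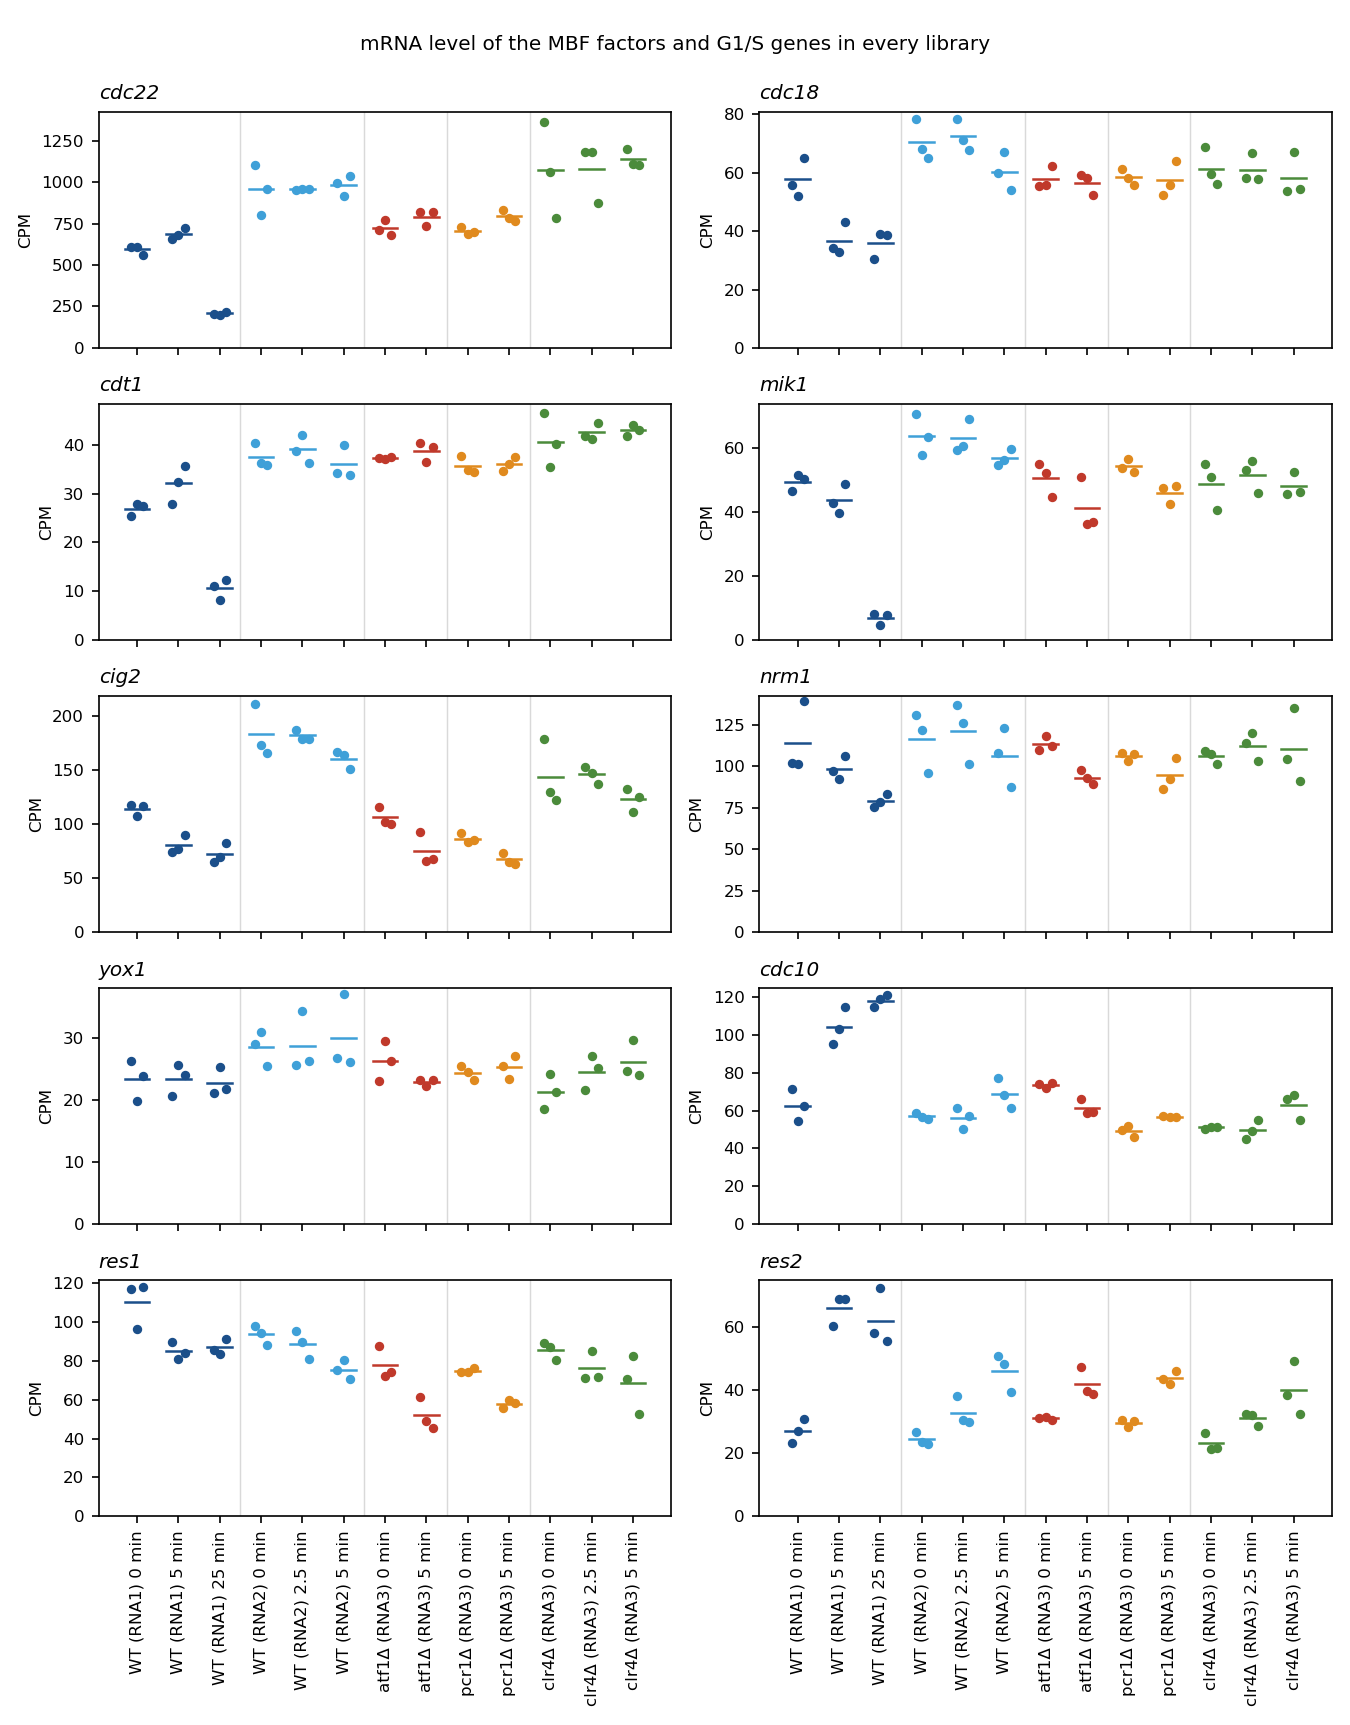
CPM of the 10 genes in each of the 39 libraries (points) with the group mean (line), by strain, series and minutes at 37.5 °C. In WT of series RNA1 at 25 min, cdc22, cdt1 and mik1 lie below every other library, and cdc10 is at 115 to 121 CPM.

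The targets cdc22, cdt1 and mik1, were not called after 5 min and fell after that. The level of mik1 in WT of series RNA1 was 46.5, 51.5 and 50.2 CPM at 0 min, 42.9, 39.6 and 48.9 at 5 min and 8.18, 4.66 and 7.73 at 25 min. The 25 min libraries, with 101, 45 and 80 counts for this gene, lie far below all others, and those of 0 and 5 min overlap. The log2 change was -0.18 ± 0.13 at 5 min (adjusted p = 0.265, or 0.0352 with library totals alone), and between 5 and 25 min it was -2.65 ± 0.15 (1.94e-15), a 6.27-fold fall.

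For cdc22 the libraries held 611, 606 and 563 CPM at 0 min, 659, 683 and 723 at 5 min and 203, 200.4 and 219.8 at 25 min. In TMM-scaled CPM the 5 min libraries are the highest of the 3 times and the 25 min libraries the lowest. The log2 change at 5 min was 0.21 ± 0.13 and was not called (adjusted p = 0.169). Over the alternatives it ran from 0.006 to 0.243 (adjusted p from 0.0546 to 0.969). Between 5 and 25 min the log2 change was -1.73 ± 0.13 (adjusted p = 5.66e-13), 3.31-fold.

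For cdt1 the levels were 25.4, 27.8 and 27.5 CPM at 0 min, 27.97, 32.5 and 35.7 at 5 min and 11.02, 8.28 and 12.4 at 25 min. The order of the times is that of cdc22, with no overlap between any pair of times in TMM-scaled CPM. Its change at 5 min was 0.25 ± 0.11 (adjusted p = 0.0526), which passed at 0.0342 with the replicate number as a block within strain and series (a fit added after seeing the data, here the replicate block), at 0.0329 with the number as a block within series alone, at 0.0465 in DESeq2 and at 0.0166 without replicate 1 of 5 min, and between 5 and 25 min it was -1.59 ± 0.11 (2.03e-13), 3.01-fold. Over 13 alternatives the cdt1 change at 5 min ran from 0.036 to 0.329 (adjusted p from 0.0166 to 0.832), and 4 called it. None of the 3 genes overlaps another gene in the count table's annotation.

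In WT of series RNA1 the targets cdc18 and cig2 fell within 5 min and then stayed within the spread of the libraries. By the same test, the 5 min change of cdc18 was not called in series RNA2 or under any deletion label. That of cig2 was not called in series RNA2 or in the libraries labelled clr4Δ (values below). The level of cdc18 was 55.9, 52.1 and 65.1 CPM at 0 min, 34.2, 32.97 and 43.00 at 5 min and 30.4, 38.9 and 38.8 at 25 min. All libraries of 5 and 25 min are below those of 0 min and overlap each other. On the log2 scale the change was -0.66 ± 0.12 at 5 min (adjusted p = 1.84e-05) and -0.02 ± 0.12 from 5 to 25 min (0.9, with a 95% interval of -0.26 to 0.22).

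For cig2 the levels were 118, 107 and 117 CPM at 0 min, 73.8, 76.9 and 89.9 at 5 min and 64.4, 69.2 and 82.3 at 25 min. The pattern is that of cdc18, with 0 min above both later times. The log2 change was -0.51 ± 0.12 at 5 min (adjusted p = 0.0008) and -0.15 ± 0.13 from 5 to 25 min (0.301). On the other strand, cig2 overlaps the non-coding RNA gene SPNCRNA.846 over 1954 bases and pmc1 over 1459. In the same comparison at 5 min these rose, by 3.34 ± 0.25 and 1.27 ± 0.16 on the log2 scale (adjusted p = 2.56e-13 and 4.82e-08), and their part in the counts of cig2 was not tested.

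Of the corepressor genes, nrm1 was lower at 25 min and yox1 was not called. Levels of nrm1 were 102, 101 and 139 CPM at 0 min, 97.3, 92.2 and 106 at 5 min and 75.3, 78.1 and 83.3 at 25 min. The 25 min libraries lie below all others, and those of 0 and 5 min overlap. The log2 change was -0.22 ± 0.13 at 5 min (adjusted p = 0.187, or 0.0322 with the replicate block, 0.0737 with the block within series and 0.0296 with library totals alone) and -0.53 ± 0.13 at 25 min (0.000646). The fall from 5 to 25 min (-0.32 ± 0.13, adjusted p = 0.0415) was not called without replicate 1 or 3 of 5 min or replicate 1 or 2 of 25 min, with adjusted p from 0.0557 to 0.118. Nor was it with library totals alone (-0.06, adjusted p = 0.79).

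For yox1 the levels ran from 19.9 to 26.4 CPM at 0 min, 20.7 to 25.7 at 5 min and 21.1 to 25.3 at 25 min, so that all 3 times overlap. Its log2 change at 25 min was -0.04 ± 0.14 (adjusted p = 0.816), with a 95% interval of -0.31 to 0.23. It was the only 1 of the 10 genes not called in any comparison of 5 or 25 min with 0 min in any strain. In the count table's build its span overlaps rec6 and dpm2 on the other strand over 724 and 158 bases, and RefSeq ends the gene at base 1648840 of ASM294v3. At 25 min rec6 and dpm2 were higher, by 0.697 ± 0.195 and 0.710 ± 0.181 on the log2 scale (adjusted p = 0.00216 and 0.000862). Neither was called at 5 min, and their part in the counts of yox1 was not tested.

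Among the factors, res2 rose the most. Its levels in WT of series RNA1 were 23.1, 26.9 and 30.8 CPM at 0 min, 60.2, 68.8 and 68.7 at 5 min and 58.02, 72.2 and 55.4 at 25 min. All libraries of both heated times lie above those of 0 min, and they overlap each other. The log2 change was 1.29 ± 0.13 at 5 min (adjusted p = 5.08e-10), 2.45-fold, and -0.09 ± 0.13 from 5 to 25 min (0.553). This gene overlaps no other in the count table's annotation.

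The shared subunit gene cdc10 rose as well, from 71.6, 54.3 and 62.3 CPM at 0 min to 95.4, 103 and 115 at 5 min and 115, 119 and 121 at 25 min. The libraries of each time lie above those of the time before, although the highest of 5 min and the lowest of 25 min round to the same value, and the step from 5 to 25 min was not called (0.18 ± 0.09, adjusted p = 0.0855). It was called with library totals alone (0.44, adjusted p = 0.0017), in a fit of the compared groups alone (0.21, 0.0209) and without replicate 3 of 5 min (0.24, 0.0448). Its log2 changes were 0.73 ± 0.09 at 5 min (adjusted p = 5.28e-08) and 0.92 ± 0.09 at 25 min (1.6e-10). Its overlap partner vps52 was lower at 5 min, by -0.19 ± 0.07 (adjusted p = 0.0294).

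The gene of the other DNA-binding subunit, res1, fell, from 117, 96.4 and 118 CPM at 0 min to 89.6, 81.1 and 84.05 at 5 min and 85.6, 83.6 and 91.5 at 25 min. The heated libraries lie below those of 0 min and overlap each other. The log2 change was -0.38 ± 0.11 at 5 min (adjusted p = 0.00536) and -0.35 ± 0.11 at 25 min (0.00679), and the latter was not called with library totals alone (-0.30, adjusted p = 0.0772). Over 83 bases res1 overlaps rrn11, which was lower at 5 min too (-0.54 ± 0.14, adjusted p = 0.00129).

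Per length, the level of res2 relative to that of res1 was 0.230, 0.324 and 0.304 at 0 min in WT of series RNA1 and 0.780, 0.985 and 0.950 at 5 min. At 25 min it was 0.788, 1.00 and 0.703. In series RNA2 it was 0.302 ± 0.0142 at 0 min, 0.428 ± 0.0353 at 2.5 min and 0.707 ± 0.0681 at 5 min (mean ± SD, n = 3), with no overlap between the 3 times. The ratio was not tested by itself, since its parts have the tests given above.

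**Figure D3:**
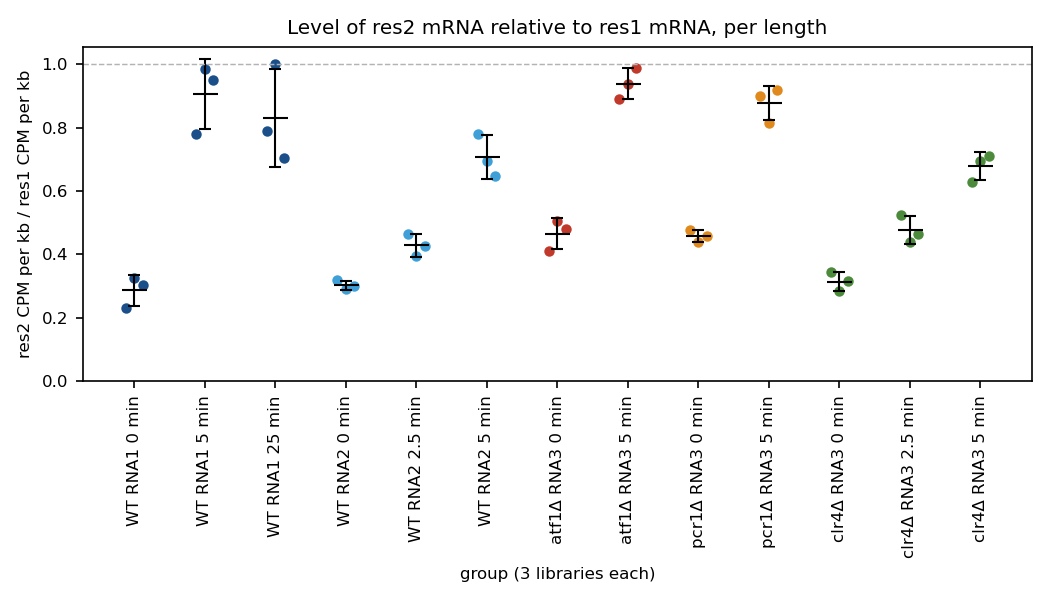
Ratio of res2 to res1 mRNA, each as CPM per kb of exon, in every library (points) with the group mean and SD (black). The dashed line marks equal levels. In every strain the 3 libraries of 5 min lie above the 3 of 0 min.

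In WT of series RNA2, 3 of the 10 genes were called after 5 min of heat, 2 higher and 1 lower, where 27.2% of all genes were called (14.1% higher and 13% lower). The rise of res2, from 26.8, 23.5 and 22.8 CPM to 50.7, 48.1 and 39.2, was 0.92 ± 0.13 on the log2 scale (adjusted p = 2.04e-06), with no overlap. For cdc10, at 58.8, 56.7 and 55.7 CPM before and 77.5, 68.3 and 61.2 after, the change was 0.27 ± 0.10 (adjusted p = 0.029). That call was lost without replicate 2 or 3 of 0 min or replicate 1 or 2 of 5 min (adjusted p from 0.0545 to 0.233), with library totals alone (0.358), with the compared groups alone (0.0942) and on the deposited signal per gene (0.118, limma). For res1 it was -0.31 ± 0.11 (adjusted p = 0.0403), lost without replicate 1 or 2 of 0 min or replicate 1 or 3 of 5 min (0.0883 to 0.125) and on the signal (0.0987). The targets were not called: cdc18 went from 78.3, 68.1 and 64.97 to 59.9, 66.97 and 53.97 CPM (-0.22 ± 0.11, adjusted p = 0.158), and cig2 from 211, 173 and 166 to 167, 164 and 151 (-0.19 ± 0.12, 0.261). In both genes the libraries of 0 and 5 min overlap.

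The difference between the series was itself tested, as the heat response of series RNA1 minus that of RNA2. Only cdc10 was called, at 0.46 ± 0.13 (adjusted p = 0.0236), where 9.28% of genes were called (6.87% higher and 2.41% lower). That call was lost without replicate 2 of 0 min or replicate 2 or 3 of 5 min of series RNA1 and without replicate 1 of 0 min or replicate 3 of 5 min of series RNA2, with adjusted p from 0.0549 to 0.109. It was also lost with library totals alone (0.201) and with the compared groups alone (0.137). For cdc18 the difference was -0.44 ± 0.17 (adjusted p = 0.0921, or 0.0214 with the replicate block, 0.0355 with the block within series and 0.0359 without replicate 3 of 5 min of series RNA1) and for cig2 -0.32 ± 0.17 (0.282, or 0.0361 with the replicate block and 0.0519 with the block within series). The block moved the count of all genes called from 573 to 1406.

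At 2.5 min none of the 10 was called in WT of series RNA2 or in the libraries labelled clr4Δ, where 1.73% and 1.57% of genes were. By the unadjusted p from the same edgeR fit, res2 alone was under 0.05 in each, and DESeq2 also called none. In WT res2 went from 26.8, 23.5 and 22.8 CPM to 38.2, 30.4 and 29.9, a log2 change of 0.43 ± 0.13 (adjusted p = 0.116, or 0.0118 with the replicate block). In the libraries labelled clr4Δ it went from 26.3, 21.3 and 21.7 to 32.2, 32.1 and 28.7, by 0.43 ± 0.14 (0.119, or 0.0134 with the block). With the block within series the adjusted p of res2 in edgeR was 0.032 in WT and 0.0308 in the libraries labelled clr4Δ. In both strains the res2 libraries of 2.5 min lie above those of 0 min. It was the 1 gene of the 10 with no overlap in each comparison. The share of all genes with no overlap was not computed there, so nothing is drawn from it. The replicate block moved the counts of all genes called from 107 to 483 and from 97 to 582, and the block within series moved them to 273 and 296. The other 9 genes were between -0.08 and 0.06 in WT and between -0.17 and 0.20 in the libraries labelled clr4Δ on the log2 scale.

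From 2.5 to 5 min in WT, res2 (0.49 ± 0.13, adjusted p = 0.00891) and cdc10 (0.30 ± 0.10, 0.0311) rose, where 13.5% of genes were called (7.42% higher and 6.09% lower). Both calls were lost with library totals alone (0.0908 and 0.294) and in a fit of the compared groups alone (0.0844 and 0.186). That of res2 was lost without replicate 3 of 2.5 min or replicate 1 of 5 min (0.0688 and 0.0761), and that of cdc10 without replicate 2 or 3 of 2.5 min or replicate 1 or 2 of 5 min (0.0668 to 0.274). With the replicate block, res1 (-0.23, adjusted p = 0.02) and cdc18 (-0.26, 0.0379) were called as well, but not with the block within series (0.105 and 0.0575), and the count of all genes went from 834 to 1558. Only cdc10 was called in the libraries labelled clr4Δ over the same minutes, at 0.34 ± 0.10 (adjusted p = 0.0113), against 16% of genes (8.57% higher and 7.44% lower). That call was lost without replicate 1 of 2.5 min or replicate 1 or 2 of 5 min (0.0594 to 0.0802), with library totals alone (0.161), with the compared groups alone (0.162) and on the signal (0.0733). For res2 the change was 0.37 ± 0.13 (0.0515), called in DESeq2 (0.0345) and without replicate 3 of 5 min (0.00848). With the block, res2 (0.36, adjusted p = 0.00863) and cig2 (-0.25, 0.0153) were called too, and all genes called went from 988 to 1811. The block within series also called them (0.0166 and 0.0228), with 1362 of all genes called.

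Atf1 and Pcr1 form a dimer that turns on genes under stress, and Clr4 is the methyltransferase of histone H3 lysine 9 that makes heterochromatin. The heat response in the 3 sets of libraries labelled for these deletions follows, with the label as the name of the group. In all 3, res2 was higher after 5 min. With the atf1Δ label it was at 31.00, 31.3 and 30.6 CPM at 0 min and 47.3, 39.7 and 38.7 at 5 min, a log2 change of 0.44 ± 0.13 (adjusted p = 0.0103). That call was lost without replicate 1 of 5 min (0.0674) and with library totals alone (0.205). In those labelled pcr1Δ it went from 30.6, 28.1 and 30.1 to 43.3, 41.9 and 46.05, by 0.56 ± 0.13 (0.00105), and in those labelled clr4Δ from 26.3, 21.3 and 21.7 to 38.3, 49.2 and 32.3, by 0.80 ± 0.14 (2.16e-05). The libraries of 0 and 5 min do not overlap in any of the 3.

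The change of cdc10 took another direction in the libraries labelled atf1Δ. They held 74.04, 72.1 and 74.6 CPM at 0 min and 65.9, 58.5 and 59.3 at 5 min, a log2 change of -0.27 ± 0.09 (adjusted p = 0.0294). All libraries of 5 min are below those of 0 min, the reverse of WT, but the call was lost without any 1 of 5 of the 6 libraries, all but replicate 1 of 5 min, with adjusted p from 0.0529 to 0.164. It was also lost with the size factors of DESeq2 (0.0538) and in DESeq2 itself (0.0509). For cdc10 the libraries labelled pcr1Δ went from 49.97, 51.9 and 46.2 to 56.99, 56.5 and 56.5 CPM (0.20 ± 0.10, adjusted p = 0.12, and 0.0392 with the compared groups alone). In those labelled clr4Δ it went from 50.4, 51.5 and 51.4 to 66.04, 68.1 and 55.2 (0.31 ± 0.10, 0.0143). The last call was lost without replicate 1 or 3 of 0 min or replicate 1 or 2 of 5 min (0.0558 to 0.0913), with library totals alone (0.155), with the compared groups alone (0.17) and on the signal (0.0793).

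The gene res1 fell in all 3, by -0.58 ± 0.12 in the libraries labelled atf1Δ (adjusted p = 0.000173), -0.37 ± 0.11 in those labelled pcr1Δ (0.0124) and -0.32 ± 0.11 in those labelled clr4Δ (0.0324). In the last the libraries of 0 and 5 min overlap (89.2, 87.2 and 80.5 against 70.8, 82.3 and 52.8 CPM). Without replicate 3 of 5 min the change was -0.16 (adjusted p = 0.303), and it was not called without replicate 1 or 2 of 0 min or replicate 1 of 5 min (0.0529 to 0.0835), with library totals alone (0.0615), with the compared groups alone (0.139) or on the signal (0.0558). The call in the libraries labelled pcr1Δ was lost without replicate 3 of 0 min or replicate 1 of 5 min (0.0626 and 0.0558).

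Of the targets, cig2 alone was called in a deletion strain after 5 min by the test over all libraries. It went from 116, 102 and 100.03 to 92.4, 65.4 and 67.9 CPM in the libraries labelled atf1Δ (-0.50 ± 0.12, adjusted p = 0.00217). In those labelled pcr1Δ it went from 91.3, 83.2 and 84.8 to 73.5, 65.1 and 62.9 (-0.36 ± 0.12, 0.0254). The latter call was lost without replicate 1 or 3 of 0 min or replicate 2 or 3 of 5 min (0.063 to 0.0899). In those labelled clr4Δ it was -0.22 ± 0.12 (0.174), called without replicate 3 of 0 min (-0.36, 0.0333), with the replicate block (0.0323) and with the block within series (0.0417). In the libraries labelled atf1Δ mik1 went from 54.97, 52.1 and 44.8 to 51.1, 36.2 and 36.8 CPM, with overlap (-0.29 ± 0.13, adjusted p = 0.0831). It was called without replicate 1 of 5 min (-0.47, 0.00682), with library totals alone (0.0216) and with the block within series (0.04). The corepressor gene nrm1 went there from 109.8, 118 and 112 to 97.4, 92.6 and 89.2 CPM, with no overlap (-0.28 ± 0.13, 0.102). It was called with the compared groups alone (0.00897), with library totals alone (0.0361) and with the block within series (0.0175). The target cdc18, lower after 5 min in WT of series RNA1, was at 55.3, 55.6 and 62.2 CPM before and 59.3, 58.3 and 52.2 after in the libraries labelled atf1Δ (-0.03 ± 0.11, adjusted p = 0.89). It changed by -0.02 ± 0.11 in those labelled pcr1Δ (0.91) and by -0.07 ± 0.12 in those labelled clr4Δ (0.708).

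In all, 4 of the 10 genes were called at 5 min in the libraries labelled atf1Δ (1 higher and 3 lower), where 29.9% of genes were (12.6% higher and 17.3% lower). In those labelled pcr1Δ 3 were called (1 higher and 2 lower), against 27.4% (12.5% and 14.9%), and in those labelled clr4Δ 3 (2 higher and 1 lower), against 30.2% (16.2% and 14%). The replicate block called mik1 too in the libraries labelled pcr1Δ (-0.24, adjusted p = 0.0485, or 0.0983 with the block within series), as did a fit of the compared groups alone (0.0247), and moved all genes called there from 1691 to 2648. It called yox1 in those labelled clr4Δ (0.29, 0.0375, or 0.0562 with the block within series).

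**Figure D4:**
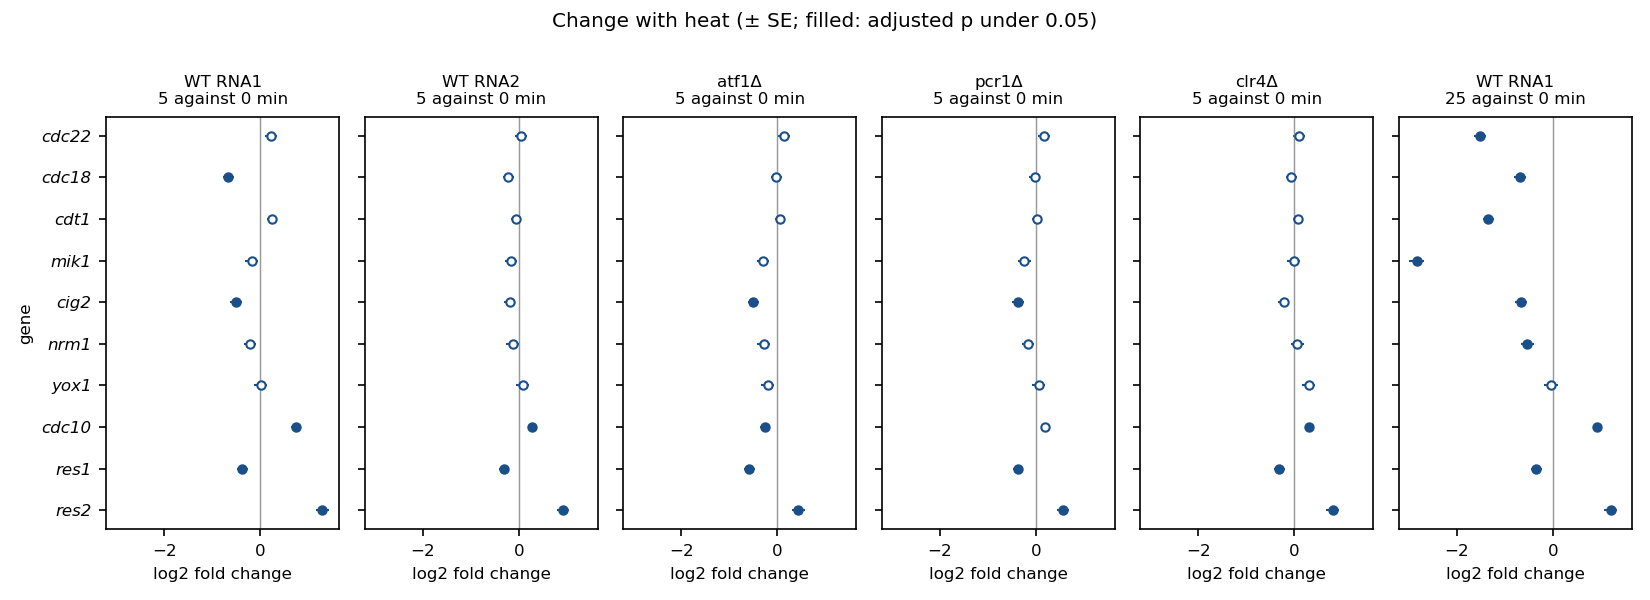
Log2 fold change (horizontal axis, ± SE) of the 10 genes after 5 min of heat in 5 sets of libraries and after 25 min in WT of series RNA1, with 3 libraries at each time. Filled points have adjusted p under 0.05 (edgeR). The change of res2 is above 0 in every panel, and cdc10 is below 0 in the libraries labelled atf1Δ alone.

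Differences between heat responses were tested directly. Within series RNA3, the response of cdc10 in the libraries labelled atf1Δ was lower than in those labelled clr4Δ by a log2 difference of -0.57 ± 0.13 (adjusted p = 0.0104), where 2.48% of genes were called (0.437% higher and 2.04% lower). That call was lost without replicate 2 or 3 of 5 min of atf1Δ, without replicate 1 or 3 of 0 min of clr4Δ and without replicate 2 of 5 min of clr4Δ, with adjusted p from 0.053 to 0.0799. No member was called for pcr1Δ minus clr4Δ, where 2.15% of genes were. There edgeR gave no unadjusted p under 0.05 among the 10, and DESeq2 called none.

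Against WT, taken as the mean of both series, the response of cdc10 in the libraries labelled atf1Δ was lower by -0.77 ± 0.12 (adjusted p = 6.97e-06) and that of res2 by -0.67 ± 0.16 (0.00453), where 8.96% of genes were called (7.94% lower). These 2 calls held under each of the 25 alternatives tried for each. In the libraries labelled pcr1Δ the response of res2 was lower by -0.54 ± 0.16 (0.0288), where 7.19% were called (6.4% lower). This call was lost with library totals alone (0.183) and without any 1 of 7 libraries (0.0519 to 0.119): replicates 1 and 3 of 0 min and 1 and 2 of 5 min of pcr1Δ, replicate 2 of 5 min of series RNA1, and replicate 3 of 0 min and 1 of 5 min of series RNA2. The response of cdc10 there was -0.31 ± 0.12 (0.117, or 0.0344 without replicate 1 of 0 min of series RNA1). None of the 10 was called in the libraries labelled clr4Δ, where 2.62% of genes were (cdc18 alone at an unadjusted p under 0.05, and none called by DESeq2). These comparisons use the same WT libraries. Within series RNA3, res2 was not called for atf1Δ or pcr1Δ minus clr4Δ. In edgeR with the replicate number as a block within series, these differences were -0.365 (adjusted p = 0.206) and -0.232 (0.561). That of clr4Δ minus WT was -0.306 (0.203).

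The response of cdc18 differed from WT by 0.42 ± 0.14 in the libraries labelled atf1Δ (adjusted p = 0.0624), 0.42 ± 0.14 in those labelled pcr1Δ (0.0653) and 0.37 ± 0.14 in those labelled clr4Δ (0.171). The first pair were called in DESeq2 (0.0272 and 0.0338), and the WT change was -0.66 in series RNA1 and -0.22 in RNA2. Of 25 alternatives, 9 called cdc18 for atf1Δ (among them the block within series, 0.0208), 8 for pcr1Δ and 1 for clr4Δ. With the replicate block pcr1Δ and clr4Δ were called (0.012 and 0.0341, or 0.0195 and 0.0637 with the block within series), and all genes called went from 444 to 1088 and from 162 to 901. For pcr1Δ minus clr4Δ the block moved all genes called from 133 to 494 and called none of the 10.

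Before heat, the strains of series RNA3 differed in some of the 10 genes. In the libraries labelled clr4Δ cdc22 was at 1366, 1062 and 786 CPM, in those labelled atf1Δ at 709, 772 and 682 and in those labelled pcr1Δ at 732, 686 and 699. The libraries labelled clr4Δ spread widely and all lie above the others. The log2 difference of atf1Δ from clr4Δ was -0.57 ± 0.13 (adjusted p = 0.000396) and that of pcr1Δ -0.60 ± 0.13 (0.000245). Without replicate 1 of clr4Δ they were -0.38 (0.0125) and -0.40 (0.00963).

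For cig2 the libraries labelled clr4Δ held 179, 129.8 and 122 CPM, and those labelled atf1Δ and pcr1Δ 116, 102 and 100.03 and 91.3, 83.2 and 84.8. Again the libraries labelled clr4Δ are the highest, with no overlap. The differences from clr4Δ were -0.43 ± 0.12 (adjusted p = 0.00405) and -0.73 ± 0.12 (1.38e-05). The former was lost without replicate 1 of clr4Δ (-0.26, 0.0786).

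The factor gene cdc10 was higher in the libraries labelled atf1Δ than in those labelled clr4Δ by 0.53 ± 0.10 (adjusted p = 3.37e-05) and than in those labelled pcr1Δ by 0.58 ± 0.09 (0.000263). It was the only member of the 10 called between atf1Δ and pcr1Δ, where 1.41% of genes were (1.25% higher and 0.162% lower), and that call held when each library was left out in turn. The levels of res2 in the libraries labelled atf1Δ and pcr1Δ were above clr4Δ by 0.43 ± 0.14 (0.0106) and 0.36 ± 0.14 (0.0307). The former was lost without replicate 2 or 3 of clr4Δ (0.053 and 0.0504). The latter was lost without either of these (0.117 and 0.0991), without replicate 1 or 3 of pcr1Δ (0.0583 and 0.0757) and with library totals alone (0.0741). In all, 4 of 10 genes were called for atf1Δ against clr4Δ, 2 higher and 2 lower (46.2% of all genes, 23% higher and 23.1% lower). For pcr1Δ against clr4Δ 3 of 10 were, 1 higher and 2 lower (43.4%, 20.6% higher and 22.7% lower).

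Against WT at 0 min, cig2 was lower in the libraries labelled atf1Δ (-0.45 ± 0.11, adjusted p = 0.000931) and pcr1Δ (-0.74 ± 0.11, 1.55e-06). So was res1 (-0.38 ± 0.10, 0.00179, and -0.44 ± 0.10, 0.000582). The gene cdc10 was higher in the libraries labelled atf1Δ (0.30 ± 0.08, 0.00283) and lower in those labelled pcr1Δ (-0.28 ± 0.08, 0.00781) and clr4Δ (-0.23 ± 0.08, 0.0452). The pcr1Δ difference was lost without replicate 3 of pcr1Δ (0.0575), and the clr4Δ difference under 9 of 15 alternatives (highest adjusted p = 0.147). In the libraries labelled clr4Δ cdc22 (0.51 ± 0.11, 0.000838) and cdt1 (0.36 ± 0.09, 0.00372) were higher. Both were lost without replicate 1 of clr4Δ (0.30, 0.0562, and 0.25, 0.0769). In those labelled atf1Δ cdt1 was higher by 0.24 ± 0.09 (0.0285), lost without any 1 of the 3 atf1Δ libraries or replicate 3 of series RNA2 (0.0543 to 0.0684) and with library totals alone (0.121). In all, 4, 3 and 3 of the 10 were called for atf1Δ, pcr1Δ and clr4Δ, where 44.5%, 38.3% and 24.6% of genes were. For cig2, cdc22 and cdt1 the 2 WT series differ from each other by as much as or more than the strains differ from their mean, except for cig2 in the libraries labelled pcr1Δ.

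Other genes of the G1/S transition were listed from general knowledge, but with earlier results of these data already known. The counts of these lists are therefore a description and no independent test. Of 14 further genes named as MBF targets, 8 fell and 2 rose after 25 min in WT of series RNA1, with a median log2 change of -0.26, where 67.3% of all genes were called (33.5% lower and 33.9% higher). After 5 min, 5 fell and 6 rose, with a median of 0.03, against 48.4% of all genes (23.5% lower and 24.9% higher). The counts of the lists that follow are from these 2 comparisons and stand against the same shares. The pattern of cdc22, higher or level at 5 min and lower at 25 min, was also that of dut1, the dUTPase gene (0.40 ± 0.16, adjusted p = 0.0319, then -2.01 ± 0.17, 4.68e-12). It was that of tos4 too, an FHA domain protein gene (-0.09 ± 0.11, 0.545, then -1.25 ± 0.12, 2.28e-11). The gene rep2, of an activating subunit that works with Res2, fell at both times, by -0.56 ± 0.08 (2.44e-07) and -1.19 ± 0.08 (5.49e-15). By contrast ctp1, a DNA end resection factor gene, rose by 0.50 ± 0.09 (1.05e-05) and 0.88 ± 0.08 (4.06e-11).

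Of 22 genes of origin licensing and firing, 14 fell and 3 rose at 25 min (median -0.31), and 13 fell and 3 rose at 5 min (median -0.24). The helicase factor gene cdc45 was lower at 5 min by -1.33 ± 0.13 (adjusted p = 2.36e-10), and orc5 by -0.78 ± 0.10 (3.89e-08). At 25 min dfp1, the regulatory subunit of the Hsk1 kinase, was lower by -0.77 ± 0.06 (5.04e-13) and the helicase gene mcm3 by -0.82 ± 0.08 (2.81e-11). Of 7 genes around ribonucleotide reductase, which share suc22 and cdt2 with the list of 14, 5 rose and 2 fell at 25 min (median 0.50). Among these cul4, a ubiquitin ligase subunit gene, rose by 0.99 ± 0.09 (2.12e-11), and spd1, an inhibitor of the enzyme, by 0.69 ± 0.09 at 5 min (3.3e-08). Of 10 checkpoint genes, 5 rose and 3 fell at 25 min (median 0.24), with cds1, the replication checkpoint kinase gene, at 1.40 ± 0.07 (2.37e-17). Of 10 genes of the CDK and its regulators, 2 rose and 4 fell at 25 min (median -0.13), so that 6 of 10 were called where 67.3% of all genes were.

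The 2 neighbouring waves of the cell cycle were lower at 25 min as well. Of 15 genes of the M-G1 wave, 13 fell and 1 rose, with a median of -1.05, where 33.5% of all genes were lower and 33.9% higher. The septum-cutting enzyme gene eng1 was lower by -3.35 ± 0.12 (adjusted p = 3.25e-21). Of 10 genes of the S phase histone wave, 7 fell and 1 rose (median -0.50), with the histone H2A gene hta2 at -1.22 ± 0.13 (4.82e-10). At 5 min, 9 of the 15 and 6 of the 10 had risen and 2 and none fallen (medians 0.28 and 0.33), where 24.9% of all genes were higher and 23.5% lower. Against a median of 0.02 over all genes at 25 min, the 5 MBF targets had a median of -1.34 and the 3 factors one of 0.92.

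**Figure D5:**
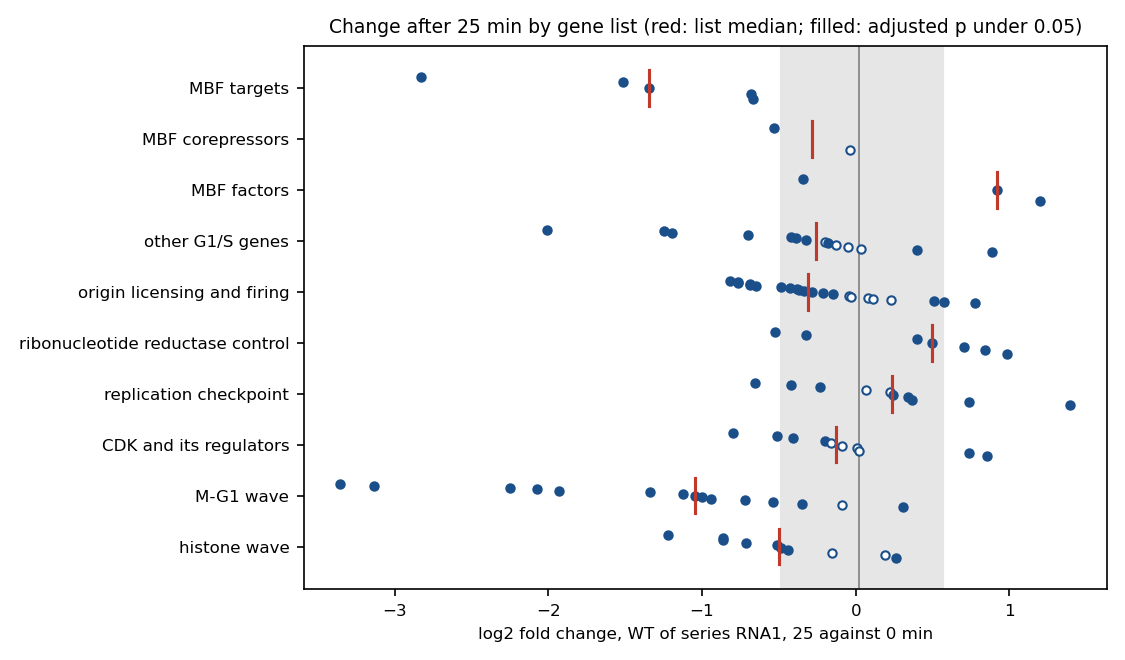
Log2 fold change (horizontal axis) after 25 min in WT of series RNA1 for each gene (points, filled where adjusted p was under 0.05) of 10 lists, with the list median in red. The grey band runs between the quartiles of all 6172 genes, from -0.49 to 0.57. All 5 MBF targets lie below the band, and cdc10 and res2 above it.

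Group means of log2 CPM were also compared between genes over the 13 groups. Pearson's r between group means was 0.968 for cdc22 and cdt1, 0.926 for cdt1 and mik1 and 0.789 for cdc10 and res2. It was -0.874 for cdc18 and cdc10 and -0.795 for cdc18 and res2. These are descriptions over 13 points that share the series and the 25 min group, and no p is given. Among 4899 genes with a mean of at least 10 CPM, the 5 with the profile most like the mean of the 7 targets and corepressors were SPAC144.01 (r = 0.969), rcl1 (0.964), sil1 (0.964), toa2 (0.962) and cka1 (0.961). The nearest single gene was hpt1 for cdc22 (0.990), nop58 for mik1 (0.990), rpl3801 for cdt1 (0.987), mrc1 for cig2 (0.940), SPAC630.12 for cdc18 (0.934), bud22 for nrm1 (0.965) and nnf1 for yox1 (0.867). For the factors it was mkh1 for cdc10 (0.942), snf59 for res1 (0.965) and atg13 for res2 (0.977).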

How the data were processed

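Polyadenylated RNA was sequenced in 39 libraries of 13 groups with 3 replicates each. Per the submitters' processing notes, STAR, Bowtie 0.12.9, Trimmomatic 0.33, deepTools and bedtools 2.17.0 were used with genome ASM294v2, and which tool served these libraries is not given in the sources used here. The authors deposited whole-number counts per gene, and for 18 libraries also a signal per gene. Libraries held 6573143 to 12588425 counts. From the counts, edgeR 4.0.16 (quasi-likelihood test, TMM, filterByExpr with a minimum count of 10 and a total of 15) was fitted to all 39 libraries with 13 group means, and p-values were adjusted by Benjamini-Hochberg over 6172 genes, with calls at 0.05. WT at 0 and 5 min in comparisons with deletions is the mean of both series. CPM are counts over the library total in tested genes times the TMM factor of the library, scaled to 1e+06. Errors are SD over libraries, or SE of a log2 change. The labels do not say that replicates are separate cultures, so p-values measure the spread between libraries only. Alternatives were library totals alone, size factors of DESeq2 1.42.0, its Wald test, no filter, the compared groups alone, a replicate block, each library left out, and limma 3.58.1 on log2 of the signal plus 50 (6150 genes with a mean of at least 500).

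Deviations from group means of libraries with the same number correlated at 0.247 to 0.482 in WT of series RNA1, 0.174 to 0.554 in RNA2, 0.211 to 0.473 in clr4Δ and 0.101 to 0.272 in pcr1Δ, so numbers were taken to pair these. They ran from -0.0754 to 0.464 in atf1Δ and from -0.232 to 0.244 between strains, which were not taken as paired. The pcr1Δ values of 0.101 and 0.111 lie within the range between strains, and replicate 1 of atf1Δ (0.464) lies above it. Whether numbers pair in pcr1Δ and atf1Δ is therefore uncertain. The block within strain and series was added after seeing the data. The 10 genes were named by the rule, with 4 genes at most from each other list at each time by smallest p, and the members and lists were chosen with earlier results of these data known. Promoters were read from RefSeq ASM294v3, by locus tag (6845 of 7015 identifiers matched). A gene of the M-G1 list that the naming rule picks is not reported here by name.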

Additional observations from a re-analysis of the deposited data

Results flagged for a closer look

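In 5 cases the heat response at 5 min differed between sets of libraries by the test of the difference itself (edgeR, adjusted p under 0.05). The response of cdc10 was larger in WT of series RNA1 than of RNA2, by 0.46 on the log2 scale. It was smaller in the libraries labelled atf1Δ than in those labelled clr4Δ, by -0.57, and than in WT, by -0.77. The response of res2 was smaller than in WT for both bZIP deletion labels, with -0.67 for atf1Δ and -0.54 for pcr1Δ. The pcr1Δ call was lost under 8 of 25 alternatives. Within series RNA3, the res2 response under neither label was called different from that in the libraries labelled clr4Δ. The comparisons with WT share the WT libraries, and strain and series cannot be told apart in them.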

How the results depend on the processing

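No result changed direction with a call under any alternative, and the count of members called at 25 min in WT of series RNA1 was 9 without each library in turn. Leaving out 1 library gave 1 to 2 members called in series RNA2 at 5 min (3 with all), 0 to 2 from 2.5 to 5 min (2), 0 to 1 for RNA1 minus RNA2 (1), 1 to 3 in pcr1Δ (3) and in clr4Δ (3) at 5 min, 0 to 2 in clr4Δ from 2.5 to 5 min (1), 0 to 1 for atf1Δ minus clr4Δ (1), 0 to 2 for pcr1Δ minus WT (1) and 0 to 4 for clr4Δ against WT at 0 min (3). Library totals alone gave 0 in series RNA2 from 2.5 to 5 min, for RNA1 minus RNA2, in clr4Δ from 2.5 to 5 min and for pcr1Δ minus WT, and 1 in clr4Δ at 5 min. The compared groups alone gave 0 for the first 3 of these, 5 in pcr1Δ and 1 in clr4Δ at 5 min. The signal gave 1 in series RNA2 at 5 min and from 2.5 to 5 min, 1 in clr4Δ at 5 min and 0 from 2.5 to 5 min. DESeq2, and its size factors in edgeR, gave 2 in clr4Δ from 2.5 to 5 min and 2 for pcr1Δ minus WT.

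The replicate block within series gave 1 at 2.5 min in series RNA2 and in clr4Δ, 2 for RNA1 minus RNA2, 3 in clr4Δ from 2.5 to 5 min, 2 for pcr1Δ minus WT and 2 for atf1Δ against pcr1Δ. The block within strain and series gave 1 at 2.5 min in both, 4 in series RNA2 from 2.5 to 5 min, 3 for RNA1 minus RNA2, 5 in clr4Δ at 5 min, 3 from 2.5 to 5 min, 3 for atf1Δ minus clr4Δ (yox1 0.0404, nrm1 0.0493), 2 for pcr1Δ minus WT and 1 for clr4Δ minus WT. In atf1Δ at 5 min, where numbers were not taken as paired, it called mik1 (0.0154) and nrm1 (0.00422), which other alternatives named in the report called too, and moved all genes called from 1846 to 2817. For atf1Δ minus WT it called cdc18 (0.0122). It changed no other call of a paired comparison beyond those given in the report. The cause of these moves was not tested.

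Under library totals alone the median change of all genes moved to -0.11 in series RNA2, -0.18 in atf1Δ and -0.11 in pcr1Δ at 5 min, and the share of calls that were higher went from 52.0% to 33.7%, 42.1% to 15.8% and 45.6% to 25.8%. In clr4Δ it went from 53.7% to 38.7%. With the compared groups alone, all genes called went from 1678 to 1092 in series RNA2 and from 1865 to 1063 in clr4Δ at 5 min. At 25 min mik1 rests on 45 to 101 counts a library.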

Other observations

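The tandem core ACGCGACGCG also lies in the promoters of 10 genes outside the 10, a set picked after the sequences were seen and given with no test. At 25 min in WT of series RNA1, 4 of them were lower and 1 was higher (edgeR, adjusted p under 0.05), with a median log2 change of -0.10, where 67.3% of all genes were called. Those lower were dut1 (-2.01 ± 0.17), ssb1 (-0.70 ± 0.07), mrc1 (-0.42 ± 0.11) and cdt2 (-0.32 ± 0.11), and SPCPB1C11.02 was higher (2.06 ± 0.20). At 5 min 4 were higher and 1 lower, with a median of 0.06, where 48.4% of all genes were called. Of the pair of divergent genes that start at the same base in ASM294v3, ssb1 was at 0.24 ± 0.07 at 5 min (adjusted p = 0.00546) and mik1 at -0.18 ± 0.13 (0.265).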
